A study of Zea mays with 56 samples.

Results

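Leaves of W22 maize plants with 2 B chromosomes were set against leaves of W22 plants with none. W22 is an inbred maize line. Each group had 4 plants (labelled 2B and Control), and each plant gave 1 RNA-seq and 1 small RNA-seq library, so that 16 of the 56 samples of the series enter the comparison, chosen by their labelled copy number alone. The other 20 plants of the series carried 1, 3, 4, 5, 6 or 7 copies and served to describe how the 2B plants compare with other carriers. Seedlings had been screened for their B chromosomes with fluorescent probes, all plants were greenhouse grown to 45 days, and no treatment was applied according to the labels. Plant codes of the Control group begin with D and those of all carriers with EB, so the presence of B chromosomes and any other difference between these plant series cannot be told apart. The check of leaf cell type markers could not be made, because no gene names come with the identifiers.

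B chromosomes are dispensable, supernumerary chromosomes, carried beside the regular set, which is called the A chromosomes. The maize B chromosome persists by an accumulation mechanism in the pollen and carries few expressed genes among a large body of repeats, many of which also occur on the A chromosomes. Transposable elements (TEs) are the mobile repeats that make up most of the maize genome, and microRNAs (miRNAs) are short RNAs that guide the cutting or repression of matching messenger RNAs.

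The 8 plants had between 20530 and 21044 genes at 0.5 FPKM or more (fragments scaled to transcript length and depth), between 738507 and 1492262 TE counts, between 625012 and 1258445 counts on the spike-in RNAs added to each sample, and between 55575 and 111964 counts on miRNA loci. The shallowest TE library was 2B replicate 4. Control replicates 2 and 4 spent 17.7% and 25.1% of their TE counts on a single Gypsy element, RLG00021Zm00004b00084, against 3.57% to 12.2% in the other 6 plants. Plants of both groups are numbered 1 to 4 below in the order of their labels.

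The copy number labels were checked on 99 B-specific genes, which are genes annotated on the B chromosome with a Control mean under 0.1 FPKM and a mean of at least 1 FPKM over the carriers other than 2B. The 2B plants took no part in that choice. Their summed level was 375, 374, 417 and 489 FPKM in 2B plants 1 to 4, a mean of 414 ± 54.2 (SD, n = 4). In Control plants 1 to 4 it was 1.77, 1.17, 1.37 and 0.899 FPKM, where the choice itself had set it low. The 2B plants listed 89 to 95 of the 99 genes above 0, and the Control plants 5 to 17.

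**Figure D1:**
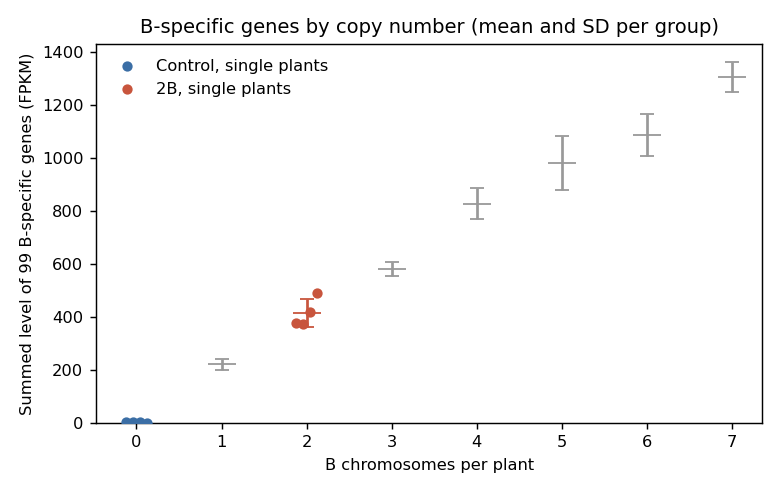
Summed level of 99 B-specific genes in FPKM (vertical axis) against the number of B chromosomes per plant (horizontal axis); dots are single Control and 2B plants, and dashes with bars are group means with the SD (n = 2 to 4). The 2B plants lie between 374 and 489 FPKM, above every Control plant and between the means of the 1B group (220 FPKM) and the 3B group (581 FPKM).

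Per B chromosome the sum in the 2B plants was 207 FPKM, between the 220 FPKM of 1B plants and the 194 FPKM of 3B plants, and next to the 207 FPKM per copy of 4B plants. Gene by gene, the ratio of the 2B mean to the 1B mean had a median of 2.02 over the 98 genes with a 1B level above 0, with quartiles of 1.64 and 2.41, and it was above 1 in 91 of them. The sum was unevenly spread over the genes. The 10 with the highest 2B mean held 41.3% of it, 11 genes reached a 2B mean of 10 FPKM, and 78 reached 1 FPKM. By position, the 39 B-specific genes in the first 25 Mb of the B chromosome held 51.0% of the sum.

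Of 758 B-annotated genes, 356 passed the filter on low values and were tested. In 2B against Control, 155 of them were called higher and 18 lower at an adjusted p under 0.05 (limma), beside 33.7% of all 24515 genes tested that were called in either direction. Since a B-annotated gene without Control expression passes the filter only through carriers, this count is a description of what could be measured. The calls ran along the whole B chromosome. Of the genes tested, 57 of 109 were higher in the first 25 Mb, 32 of 71 from 25 to 50 Mb, 21 of 70 from 50 to 80 Mb and 34 of 83 beyond, with 1, 6, 5 and 4 lower.

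The largest rise among B-annotated genes with groups that did not overlap was that of Zm00044a000145 (B chromosome, 21804671 to 21806536). It was listed at 0 FPKM in all 4 Control plants and at 42.2, 54.5, 58.5 and 64.1 FPKM in 2B plants 1 to 4. Every 2B plant was far above every Control plant, with a log2 difference of 6.77 ± 0.15 (SE, adjusted p = 1.66e-20, limma, log2(FPKM + 0.5) scale). With Control at 0 the size depends on the pseudocount, and it was 9.08 with 0.1 FPKM and 5.79 with 1 FPKM. Zm00044a000177 (B chromosome, 23551736 to 23554517) stood at 17.7, 17.7, 14.5 and 20.4 FPKM in 2B plants, and at 0 in Control plants 1, 2 and 4 and 0.224 FPKM in plant 3. Its log2 difference was 5.03 ± 0.13 (SE, adjusted p = 3.75e-19, limma), and 7.03 or 4.13 with those pseudocounts.

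Some genes annotated on the B chromosome also had values in Control plants. Those plants carry no B chromosome, so these values are not the output of a B copy, and the origin of the reads was not tested. A Control mean of 1 FPKM or more was found for 92 B-annotated genes, of which 22 were higher and 12 lower in 2B plants (37.0% called, near the 33.7% of all genes tested), with a median log2 difference of 0.01, beside a median of 0.00 over all genes tested. The steepest fall was that of Zm00044a000358 (B chromosome, 52423953 to 52427029), with 185, 216, 178 and 206 FPKM in Control plants 1 to 4 and 46.6, 40.2, 49.2 and 67.6 FPKM in 2B plants. The highest 2B plant stayed below the lowest Control plant (log2 difference -1.96 ± 0.22, SE, adjusted p = 9.52e-08, limma). Zm00044a000305 (B chromosome, 39490958 to 39493733) fell from 20.1, 15.6, 26.3 and 24.0 FPKM to 5.48, 5.27, 7.17 and 4.93 FPKM, again without overlap (log2 difference -1.81 ± 0.38, SE, adjusted p = 0.000543, limma). How reads that map to several places were counted was not given in the sources used here, so the values of B-annotated genes with near-identical copies on A chromosomes are uncertain.

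The A chromosomes, which both groups carry, held most of the genes that differed. Of 24159 A-chromosome genes tested (of 40306), 4093 were higher and 3992 lower in 2B plants than in Control plants (33.5% called, limma, adjusted p under 0.05). The differences were mostly small. Among the 8085 called A genes the median size was 0.76 on the log2 scale with quartiles of 0.51 and 1.14. Over all 24159 A genes tested, called or not, the median SD among plants was 0.22 in Control and 0.23 in 2B. A change of less than 0.5 was found for 1966 of the called genes, 0.5 to 1 for 3550, 1 to 2 for 2021, 2 to 4 for 518 and over 4 for 30. In 82.5% of the called genes the groups did not overlap, with 3468 above and 3199 below every Control plant, beside 16.4% above and 15% below over all genes tested. In bulk leaf, fewer cells of a type and less RNA per cell cannot be told apart.

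The balance of rises and falls differed between classes of gene level. The classes rest on the mean over all 28 plants, most of them carriers. A gene lower in carriers is thereby moved towards a lower class, and a gene higher in carriers towards a higher class. How much of the pattern comes from the classes themselves was not tested. Among the 5291 A genes with a mean under 1 FPKM over all 28 plants, 193 were higher and 636 lower in 2B plants. Among the 9819 genes from 1 to 10 FPKM the counts were 1416 and 1666, and among the 8109 genes from 10 to 100 FPKM they were 2089 and 1510. Among the 940 genes at 100 FPKM or more, 395 were higher and 180 lower, with a median log2 difference of 0.20. The share of rises among called genes of the highest class lay between 65.9% and 85.5% under the 15 alternative settings, and that of the lowest class between 19.6% and 30.2%. These settings kept the same classes. Scaling to the spike-in RNAs in place of the authors' scaling raised the median log2 difference of all genes from 0.00 to 0.11. It left 3981 calls, 2744 higher and 1237 lower, which moved the share of rises among all called genes from 51.4% to 68.9%. In that scaling the class from 1 to 10 FPKM turned to more rises than falls, with rises at 62.5% of its calls.

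**Figure D2:**
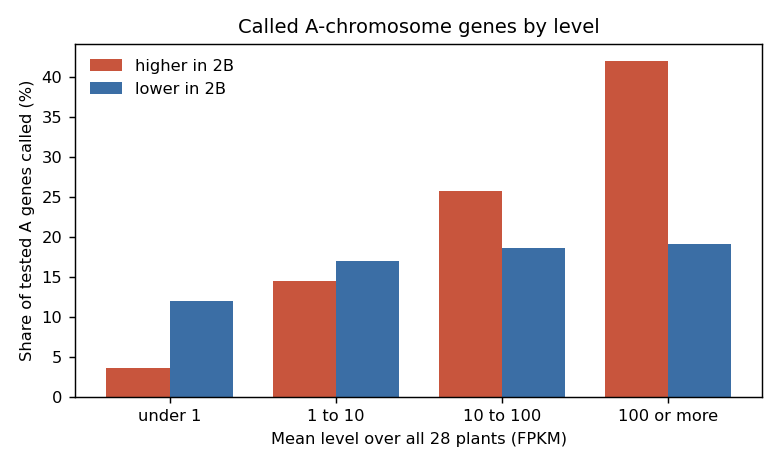
Share of tested A-chromosome genes called higher (red) or lower (blue) in 2B plants than in Control plants (vertical axis, percent), by mean level over all 28 plants in FPKM (horizontal axis). Falls outnumber rises in the class under 1 FPKM (636 against 193), and rises outnumber falls at 100 FPKM or more (395 against 180).

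Called genes lay on all 10 A chromosomes. Cut into windows of 10 Mb with at least 20 tested genes, 215 windows had a median of 32.6% of their genes called, with a range from 13.3% to 55.8%. The highest share was found between 150 and 160 Mb on chromosome 3, where 54 of 129 tested genes were higher and 18 lower. Their median log2 difference was 0.34, and 31 of the rises exceeded 1. That window was picked for its value and is given as a description. Its genes stood at a median of -0.02 against the other carriers, with 0 of the 129 called in that comparison at an adjusted p under 0.05 (limma). At the other end of the balance, 4 genes were higher and 14 lower among 38 tested between 90 and 100 Mb on chromosome 4.

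Some A genes were detected in a single group. There were 27 A genes listed at 0 in all 4 Control plants and at 1 FPKM or more in all 4 2B plants, and 18 of these were above 0 in all 20 other carriers as well. In the other direction, 15 genes stood at 1 FPKM or more in every Control plant and at 0 in every 2B plant, of which 4 were at 0 in all 20 other carriers. Zm00004b020638 (chromosome 4, 23526708 to 23527696) showed the largest rise of an A gene, from 0 in every Control plant to 54.4, 42.8, 53.7 and 36.0 FPKM. The groups were far apart (log2 difference 6.54 ± 0.23, SE, adjusted p = 9.41e-17, limma), and the 20 other carriers ranged from 14.97 to 79.7 FPKM. The size again depends on the pseudocount, from 8.85 with 0.1 FPKM to 5.56 with 1 FPKM. This gene passed the filter on low values only through carriers, so its call is a description. Zm00004b020529 (chromosome 4, 17410129 to 17410907) was already detected without B chromosomes, at 2.13, 3.05, 3.84 and 3.42 FPKM, and reached 206, 157, 192 and 241 FPKM in 2B plants. Its log2 difference was 5.80 ± 0.24 (SE, adjusted p = 1.05e-15, limma).

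The largest falls of A genes left little or no signal in 2B plants. Zm00004b036731 (chromosome 7, 150726177 to 150728516) had 39.5, 42.3, 62.6 and 60.4 FPKM in Control plants and 2.11, 1.43, 0.828 and 0.880 FPKM in 2B plants. No plant of either group came near the other group (log2 difference -4.86 ± 0.39, SE, adjusted p = 4.37e-10, limma). Zm00004b007830 (chromosome 2, 87382567 to 87385271) had 20.01, 13.7, 12.2 and 10.2 FPKM in Control plants and was listed at 0 in every 2B plant and in all 20 other carriers. Its log2 difference of -4.82 ± 0.15 (SE, adjusted p = 1.02e-17, limma) also depends on the pseudocount, from -7.10 with 0.1 FPKM to -3.87 with 1 FPKM. That SE and p-value rest on a spread shared over all 28 libraries, of which those of all carriers were at 0. They understate the spread among the Control plants. Zm00004b007830 passed the filter on low values only through Control plants, so its call is a description. The functions of these genes are not annotated in the files.

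The total output of A and B genes did not pass a test of its difference. Gene reads per spike-in read, given as log2 relative to the mean of all plants, were -0.39, -0.60, 0.23 and -0.45 in Control plants 1 to 4 and -0.01, -0.08, -0.03 and -0.36 in 2B plants. Gene reads here are the summed FPKM times the relative read depth, so they stay scaled to transcript length. Control replicate 3 was the highest of the 8 and the groups overlapped, with a mean difference of 0.18 (two-sided exact permutation test, p = 0.4). Without Control replicate 3 the difference was 0.36 and every 2B plant lay above the other 3 Control plants (exact permutation p = 0.0571). Without Control replicate 2 it was 0.085. With 4 plants against 4 the smallest p this test can give is 0.0286.

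The 2B plants differed much less from plants with other copy numbers than from Control plants. Against the mean of the 1B, 3B, 4B, 5B, 6B and 7B groups, 2 genes were higher and 85 lower in 2B plants (0.00816% and 0.347% of 24515, 0.355% in all, limma), and 2297 had an unadjusted p under 0.05. Of the 85 lower genes, 63 were B-annotated, with a median log2 difference of -0.83, and 45 of the 99 B-specific genes were among them. The 99 genes had been chosen for their level in these other carriers, so the count of 45 is a description. Of the 8085 A genes called against Control, 19 were also called against the other carriers, which is 0.235%. Among the 22 A genes lower than in other carriers, 17 were higher than in Control plants and 10 had a Control mean under 0.1 FPKM. The 2 comparisons share the 2B plants. A gene that is not called in the second comparison is not thereby shown to be equal in all carriers.

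The gene with the largest rise over other carriers, Zm00004b024626 (chromosome 8, 2883336 to 2889973), was listed at 0 in all 24 plants outside the 2B group. In 2B plants 1 to 4 it stood at 3.24, 1.75, 1.47 and 0 FPKM, so that plant 4 did not show it (log2 difference 1.76 ± 0.33, SE, adjusted p = 0.000518, limma, from 3.31 with a pseudocount of 0.1 FPKM to 1.21 with 1 FPKM). That SE and p-value rest on a spread shared over all 28 libraries, of which 24 were at 0. They understate the spread among the 2B plants. The gene passed the filter on low values only through 2B plants, so its call is a description. Zm00004b023382 (chromosome 4, 202529397 to 202533314) was at 10.2, 12.5, 14.9 and 12.7 FPKM in 2B plants, which overlapped with the other carriers at 6.79 to 13.5 FPKM (adjusted p = 0.0308, limma). Among the falls, Zm00004b007283 (chromosome 2, 44802920 to 44803184) had 3.35, 1.81, 3.03 and 0 FPKM in 2B plants. Other carriers ranged from 1.57 to 40.3 FPKM, with a log2 difference of -2.29 (adjusted p = 0.00725, limma) that lost its call without 2B replicate 4 (adjusted p = 0.0911). Zm00004b001721 (chromosome 1, 69735101 to 69742672) lay between Control and the other carriers. It had 0.499, 0.754, 0.902 and 0.484 FPKM in 2B plants, at most 0.134 FPKM in Control plants and 0.562 to 5.86 FPKM in other carriers (log2 difference to other carriers -1.20 ± 0.17, SE, adjusted p = 0.000406, limma).

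Transposable elements moved in both directions. Of 60247 deposited elements, 5359 were tested, and 996 were higher and 807 lower in 2B than in Control plants (33.6% called, edgeR quasi-likelihood test, adjusted p under 0.05). The overall balance depended on the setting, with 753 higher and 888 lower when every element with a count was fitted, 788 and 794 without 2B replicate 3, 796 and 795 without 2B replicate 4, and 728 and 448 with spike-in scaling. Leaving aside elements tagged as belonging to the B chromosome, 882 were higher and 775 lower among 5118. The superfamilies differed in their balance of rises and falls. Helitrons (code DHH), which are thought to copy themselves by rolling-circle replication, had 481 rises and 277 falls among 2575 elements. These are 18.7% and 10.8%, beside 17.2% and 15.1% over all elements without the B tag. The rises are near that share, and the falls are below it. Unclassified LTR retrotransposons (RLX), which move through an RNA copy, had 108 rises and 220 falls among 811 (13.3% and 27.1%). Rises made up 57.5% to 76.5% of the called Helitrons and 26.8% to 35.1% of the called RLX elements under the 16 alternative settings.

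**Figure D3:**
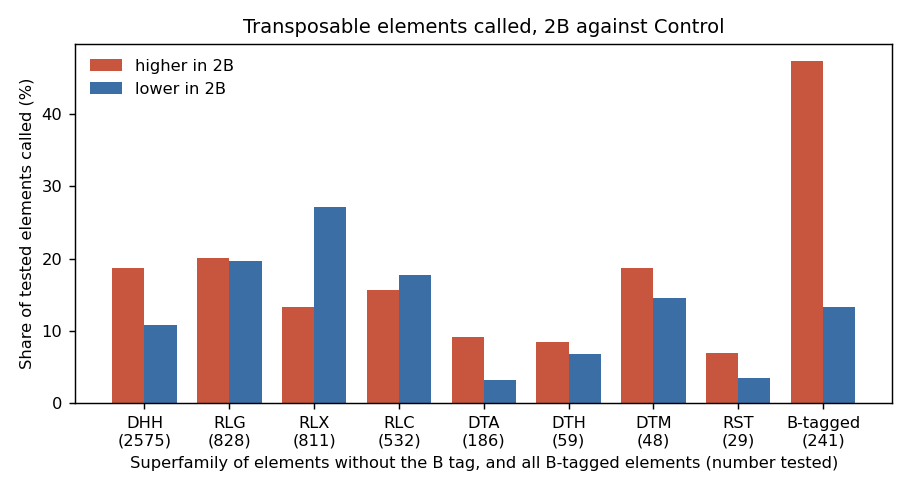
Share of tested elements called higher (red) or lower (blue) in 2B plants than in Control plants (vertical axis, percent), by superfamily code for elements without the B tag and for all B-tagged elements (horizontal axis, number tested in parentheses). Helitrons (DHH) had more rises than falls (481 against 277), RLX elements more falls (220 against 108), and B-tagged elements 114 rises against 32 falls.

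Gypsy elements (RLG) were evenly split, with 166 rises and 163 falls among 828, and Copia elements (RLC) had 83 and 94 among 532. The shares called were 39.7% and 33.3%, the latter near the 32.4% of all elements without the B tag. The directions of both changed with the setting, with rises at 35.1% to 52.7% of the called Gypsy elements and 31.3% to 51.1% of the called Copia elements. Among DNA transposons, hAT elements (DTA) had 17 rises and 6 falls among 186, Mutator elements (DTM) 9 and 7 among 48, and Harbinger elements (DTH) 5 and 4 among 59. The shares called were 12.4%, 33.3% and 15.3%, that of Mutator elements again near the share of all. SINEs (RST), short elements that depend on the proteins of others, had 2 rises and 1 fall among 29. Within Helitrons, family DHH00002 had 278 rises and 132 falls among 1459 elements, and family DHH00001 had 41 and 38 among 221. Rises were 19.1% and 18.6% of the tested elements of these families, and falls 9.05% and 17.2%.

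Some elements had counts in 1 group only. Levels are given as CPM, counts scaled to library size with trimmed-mean (TMM) factors. Among elements without the B tag, 39 called elements had no count in any Control plant, and 19 of these had counts in all 20 other carriers. A further 8 called elements had no count in any 2B plant, and only 2 of these had no count in any of the 20 other carriers. The Helitron DHH00002Zm00004b01751 had 79.6, 104, 79.4 and 88.4 CPM in Control plants and no count in any 2B plant, which is at least 125-fold lower against a floor of 3 counts over the 2B group (edgeR adjusted p = 1.67e-09). The Gypsy element RLG05984Zm00004b00001 had 37.4, 33.8, 49.4 and 29.5 CPM in Control plants and none in 2B plants, at least 56.7-fold lower. Its edgeR adjusted p was 0.000893, and the call was lost with DESeq2 (adjusted p = 0.0655).

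Other elements had few or no counts in Control plants. Elements without any Control count pass the filter on low counts only through carriers, so their calls are descriptions. The Copia element RLC03512Zm00004b00002 went from no count to 26.0, 10.9, 17.5 and 34.2 CPM, at least 32.2-fold higher (edgeR adjusted p = 7.76e-08). The RLX element RLX04077Zm00004b00002 had 2.04, 0, 0.749 and 0 CPM in Control plants and 97.1, 118, 145 and 137 CPM in 2B plants. It was also below the other carriers, with a log2 difference of -0.79 (edgeR adjusted p = 0.0115). The largest rises of the Helitron, hAT and Gypsy superfamilies, DHH00002Zm00004b06817, DTA00032Zm00004b00011 and RLG09750Zm00004b00001, likewise had no count in any Control plant and were at least 17.8-fold, 22.6-fold and 24.3-fold higher. Among Mutator elements, DTM00851Zm00004b00002 rose from at most 0.749 CPM to 14.7, 20.8, 16.1 and 15.3 CPM, and DTM00473Zm00004b00060 fell from 28.6, 32.7, 20.98 and 78.2 CPM to at most 0.990 CPM.

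Falls among the other superfamilies did not remove the counts from every 2B plant. The RLX element RLX31807Zm00004b00001 fell from 26.5, 31.6, 24.7 and 44.8 CPM to between 0.731 and 1.98 CPM (log2 difference -4.41 ± 0.55, SE, edgeR adjusted p = 1.70e-07). RLC01864Zm00004b00003 (Copia) and DTA00098Zm00004b00009 (hAT) each kept counts in a single 2B plant. The SINE RST00519Zm00004b00001 fell less, from 114, 192, 111 and 169 CPM to 66.8, 87.1, 94.3 and 68.4 CPM (log2 difference -0.87 ± 0.18, SE, edgeR adjusted p = 0.00037). The Harbinger element DTH10855Zm00004b00098 was near the threshold (edgeR adjusted p = 0.0451), and its call was lost in 8 of 16 alternative settings. The largest SINE rise was that of RST00773Zm00004b00001 (log2 difference 4.84, edgeR adjusted p = 0.000251). Among Harbinger elements it was that of DTH12306Zm00004b00034 (log2 difference 2.41, edgeR adjusted p = 0.0039). Both rises kept their calls in all 16 alternative settings.

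The B-tagged elements were described apart. Of 2292 such elements, 241 were tested, with 114 higher and 32 lower in 2B plants, beside 18.6% higher and 15.1% lower over all TEs tested. The 13.3% of B-tagged elements that were lower are near that share, and an element without Control counts passes the filter only through carriers. RLG00487zmB00001, a Gypsy element, had no count in Control plants and 74.6, 80.2, 78.2 and 61.4 CPM in 2B plants, at least 112-fold higher (edgeR adjusted p = 7.71e-13). DHH00002zmB00367, a Helitron, went from no count to 68.5, 72.3, 73.8 and 57.8 CPM, at least 103-fold higher (edgeR adjusted p = 2.03e-16). Such clean differences were the exception, as 38 of the 241 had no count in any Control plant, 29 of them with counts in all 4 2B plants. All B-tagged elements in the table together took 6.68% to 9.90% of the TE counts in Control plants and 6.05% to 8.36% in 2B plants, ranges that overlap. Control plants carry no B chromosome, so their counts on B-tagged elements did not come from B copies. The origin of those reads was not tested.

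The summed TE output did not pass a test of its difference. TE reads per gene read, as log2 relative to the mean of all plants, were -0.01, 0.46, -0.02 and 0.81 in Control plants and -0.03, -0.21, -0.13 and 0.03 in 2B plants. Control replicates 2 and 4, in which the element RLG00021Zm00004b00084 took 17.7% and 25.1% of the counts, were the highest. The mean difference was -0.39 (two-sided exact permutation test, p = 0.114), -0.23 without Control replicate 4 and -0.12 without the 10 most counted elements. By superfamily, LINE L1 elements (RIL) were 1.31 higher on the log2 scale and CACTA elements (DTC) 0.56 higher, with no overlap between groups (exact permutation p = 0.0286 each, the smallest possible). Neither passed the adjustment over 12 superfamilies (adjusted p = 0.171), and RIL rested on 75 to 416 counts per plant. The smallest possible p passes that adjustment only where most of the 12 superfamilies reach it, so the adjusted test could not decide on these 2. Summed Helitron reads per gene read had a log2 difference of -0.18 (exact permutation p = 0.229). Against other carriers, 10 elements were higher and 66 lower in 2B plants (0.187% and 1.23% of 5359, 1.42% in all, edgeR), and 34 of the lower ones were B-tagged.

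Small RNA loci differed at fewer places. Of 98 miRNA loci 71 were tested, and 7 were higher and 5 lower in 2B than in Control plants (16.9% called, edgeR quasi-likelihood test, adjusted p under 0.05), with 27 at an unadjusted p under 0.05. The median log2 difference over all 71 loci was -0.28. miRNA counts made up 7.66% to 10.6% of the small RNA library in Control plants and 11.7% to 13.8% in 2B plants. The balance of the calls depended on the scaling. Relative to the whole small RNA library in place of the miRNA counts, 23 loci were higher and 0 lower, the median over all loci rose to 0.22, and none of the 5 falls below kept its call.

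The most abundant RNA of each called locus, with its seed (bases 2 to 8 from the 5′ end) in capitals, is shown because family names rest on these sequences. The files name no miRNA family, and the names were given by hand from known plant miRNA sequences, without a reference table to match them against. First the 7 loci that rose:
miR528-3p, Cluster_66098 (chr9:159738713-159738849, minus strand): cCUGUGCCugccuccuccauu
miR398-3p, Cluster_16192 (chr2:174592244-174592383, plus strand): uGUGUUCUcaggucgcccccg
miR398-3p, Cluster_49465 (chr7:39565488-39565658, plus strand): uGUGUUCUcaggucgcccccg
miR408-3p, Cluster_55557 (chr8:39846385-39846534, minus strand): cUGCACUGccucuucccuggc
miR171-3p, Cluster_63212 (chr9:101060209-101060336, minus strand): uUGAGCCGcgccaauaucucu
miR167-3p, Cluster_35421 (chr5:4442863-4442963, plus strand): aUCAUGCUguggcagccucacu
miR169-5p, Cluster_17213 (chr2:198873328-198873516, plus strand): uAGCCAAGgaugagcugccug
Then the 5 loci that fell:
miR395-3p, Cluster_11748 (chr2:6331792-6331979, minus strand): uGAAGUGUuugggggaacuc
miR1432-5p, Cluster_53031 (chr7:164803817-164803912, minus strand): uCAGGAGAgaugacaccgacg
miR396-5p, Cluster_11369 (chr2:1896663-1896866, minus strand): uCCACAGGcuuucuugaacug
miR167-3p, Cluster_63677 (chr9:115048666-115048813, plus strand): aGAUCAUGuugcagcuucacu
unnamed, Cluster_19615 (chr2:241165150-241165427, minus strand): aUGAUUCAuggacucaaagag
The genome build of these coordinates was not given in the sources used here.

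The copper miRNAs rose together. miR398, miR408 and the monocot family miR528 are known to repress transcripts of copper proteins, and all 4 tested loci of this list were called higher, beside 9.86% of all loci called higher and 7.04% called lower. The list and the names were chosen with earlier results of these data known, so the count of 4 is a description. For miR528 the RNA measured is that of the 3p arm, while the arm known as the regulator is the 5p arm. The 2 miR398 loci have the same sequence, so their reads cannot be told apart and they are not independent. miR528-3p had 132, 93.5, 177 and 187 CPM in Control plants 1 to 4 and 1013, 1916, 970 and 2215 CPM in 2B plants. The lowest 2B plant was well above the highest Control plant (log2 difference 3.35 ± 0.53, SE, edgeR adjusted p = 5.99e-05). Of the 2 miR398-3p loci the stronger one, Cluster_49465, had 3699, 7214, 7058 and 4141 CPM in Control plants and 12760, 16462, 8313 and 18403 CPM in 2B plants, without overlap (log2 difference 1.34 ± 0.31, SE, edgeR adjusted p = 0.00481).

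miR408-3p was the most variable of the list, with 366, 966, 1557 and 659 CPM in Control plants and 1718, 2789, 1910 and 4468 CPM in 2B plants. The groups did not overlap, though 2B plant 1 stood only just above Control plant 3 (log2 difference 1.65 ± 0.53, SE, edgeR adjusted p = 0.0301). Its call was lost without Control replicate 1, Control replicate 4 or 2B replicate 4 (adjusted p up to 0.102). The other miR398-3p locus, Cluster_16192, ranged from 325 to 849 CPM in Control plants and from 1113 to 2626 CPM in 2B plants. Its call was lost without 2B replicate 4 as well (adjusted p = 0.0598), so that 2 of the 4 copper loci were called in that setting.

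**Figure D4:**
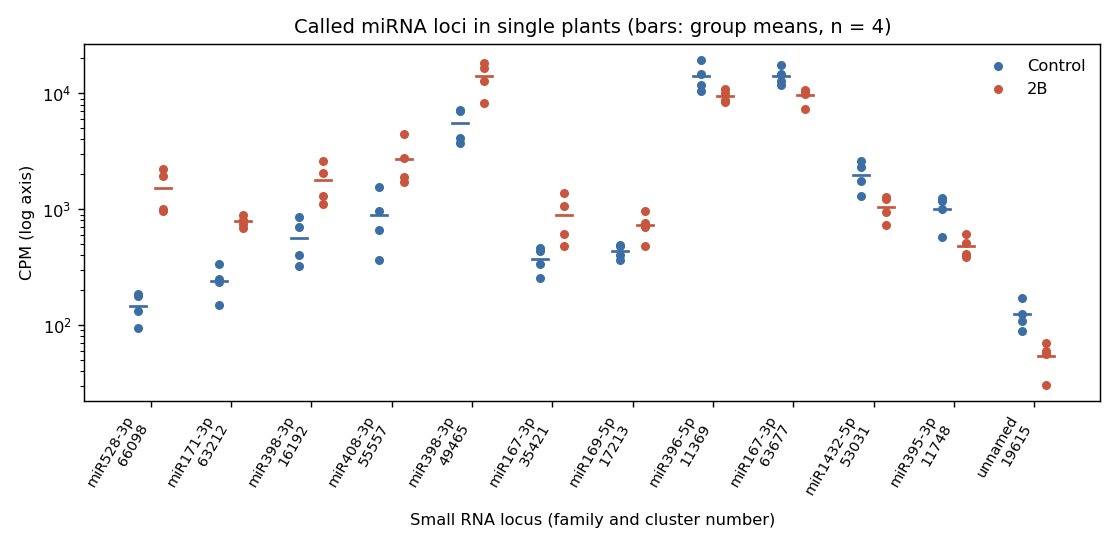
Level of the 12 called miRNA loci in CPM (vertical log axis) in single Control plants (blue) and 2B plants (red), with group means as bars (n = 4), ordered from the largest rise to the largest fall (horizontal axis, family and cluster number). The miR528-3p locus is at 93.5 to 187 CPM in Control plants and 970 to 2215 CPM in 2B plants, and the groups of miR396-5p, miR395-3p and miR169-5p overlap.

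Members of the miR171 and miR167 families differed in their calls. miR171, which represses GRAS transcription factors that act in meristems, had 5 tested loci and 1 called, a share near the 16.9% of all loci. That locus, Cluster_63212, had 335, 234, 248 and 148 CPM in Control plants and 884, 752, 684 and 813 CPM in 2B plants, without overlap (log2 difference 1.70 ± 0.28, SE, edgeR adjusted p = 5.99e-05). The other tested miR171 locus with the same seed was not called, with a log2 difference of -0.21 (edgeR adjusted p = 0.479). Its sequence is given for comparison with that of Cluster_63212.
miR171-3p, Cluster_36501 (chr5:20804003-20804089, minus strand): uUGAGCCGcgucaauaucucc

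miR167 acts on auxin response factors through its 5p arm, and 2 loci of its 3p arm were called in opposite directions. Cluster_35421 had 335, 436, 460 and 256 CPM in Control plants and 477, 612, 1072 and 1393 CPM in 2B plants, all above the Control plants (log2 difference 1.28 ± 0.33, SE, edgeR adjusted p = 0.00811), a call that was lost without 2B replicate 4 (adjusted p = 0.0643). Cluster_63677, the more abundant of the pair, fell from 14593, 12746, 11834 and 17657 CPM to 9950, 10504, 10631 and 7327 CPM (log2 difference -0.57 ± 0.18, SE, edgeR adjusted p = 0.0304). This fall lost its call in 11 of 14 alternative settings. The 5p locus Cluster_811 was not called, with a log2 difference of -0.04 and the opposite sign, 0.46, when scaled to the whole small RNA library.

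miR169-5p, which acts on NF-YA transcription factors, had 406, 483, 495 and 364 CPM in Control plants and 477, 973, 705 and 757 CPM in 2B plants, with 2B plant 1 inside the Control range (log2 difference 0.75 ± 0.22, SE, edgeR adjusted p = 0.0217). The call was lost in 4 of 14 alternative settings, without Control replicate 1, Control replicate 4 or 2B replicate 4 and with only Control and 2B fitted (adjusted p up to 0.0667). Among the falls, miR395-3p, a regulator of sulfate assimilation, went from 1240, 577, 1168 and 1013 CPM to 506, 612, 388 and 411 CPM. The groups overlapped through Control plant 2 (log2 difference -1.06 ± 0.31, SE, edgeR adjusted p = 0.0196). The call was lost in 5 of 14 alternative settings, among them those without Control replicate 1, 2B replicate 3 or 2B replicate 4 (adjusted p up to 0.164). miR1432-5p went from 1291, 2587, 1769 and 2292 CPM to 725, 1214, 1277 and 953 CPM, with every 2B plant below every Control plant (log2 difference -0.93 ± 0.23, SE, edgeR adjusted p = 0.00811), and it lost its call without 2B replicate 1 (adjusted p = 0.0545). The fall of miR396-5p at Cluster_11369 (log2 difference -0.56, edgeR adjusted p = 0.0251) and that of the unnamed Cluster_19615 (-1.18, adjusted p = 0.0316) were each lost in 10 of 14 alternative settings.

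Leaf patterning and phase change families had no calls in the main scaling. miR166, which restricts HD-ZIP III transcription factors and patterns the leaf, had 8 tested loci and 0 called by edgeR, with a median log2 difference of 0.03 and 0 at an unadjusted p under 0.05 (DESeq2 also called 0). Scaled to the whole small RNA library, 5 of the 8 were called higher. Of these, 7 have the same sequence, so their reads cannot be assigned to a single locus.
miR166-3p, Cluster_35706 (chr5:8410104-8410259, plus strand): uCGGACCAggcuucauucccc
It stood at a mean of 336166 CPM in Control plants and 309120 CPM in 2B plants, the most abundant locus of both groups. miR156, which holds back SPL factors and the adult phase, had 5 tested loci and 0 called, with a median of 0.41 and 2 at an unadjusted p under 0.05. Scaled to the whole small RNA library, 4 of the 5 were called higher. Its largest locus, Cluster_38793, had a mean of 35505 CPM in Control and 49409 CPM in 2B plants without overlap (log2 difference 0.48 ± 0.19, SE, edgeR adjusted p = 0.0772), and it was called in 8 of 14 alternative settings. A tested gene overlaps this locus in the authors' annotation and rose from 10.2 ± 0.376 to 15.8 ± 2.28 FPKM (SD, n = 4 each, log2 difference 0.59, limma adjusted p = 0.000831).

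Against the other carriers 0 of the 71 miRNA loci were called by edgeR, with 11 at an unadjusted p under 0.05, and DESeq2 called 1. miR528-3p had a log2 difference of -0.34 and ranged from 382 to 3951 CPM in those 20 plants.

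The authors' deposited table for 2B against Control listed 6112 significant genes, 3153 higher and 2959 lower. Of these 5696 were also called here, 93.2% of theirs and 69.0% of the calls here, all in the same direction. For TEs the authors' deposited table gave 1154 elements, 781 higher and 373 lower, of which 937 were shared. For miRNA loci the authors' deposited table gave 16 higher and 0 lower, of which 7 were called here.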

How the data were processed

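All 28 plants had a library of each assay, and the 20 plants outside the comparison served for a shared estimate of the spread. The submitters' processing notes name Cuffdiff, edgeR, Bowtie2, TopHat2 and cutadapt 1.16 without a role. Genome build, annotation and handling of multi-mapping reads are not given in the sources used here. The authors deposited genes as FPKM values, scaled by them between libraries, and TEs, spike-ins and miRNA loci as raw read counts. The TE table names no assay and was taken as RNA-seq. miRNA values deposited as RPM gave the small RNA library sizes, and no test used the deposited TE RPKM. The authors' own comparisons, deposited with log2 fold changes, p-values and q-values, have the columns of Cuffdiff (genes) and of a likelihood-ratio test in edgeR (TEs, miRNA loci), per the file headers.

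Genes reaching 0.5 FPKM in 2 or more libraries were tested with limma 3.58.1 (mean-variance trend) on log2(FPKM + 0.5), a scale that compresses changes of weakly expressed genes. For TE and miRNA counts the quasi-likelihood test of edgeR 4.0.16 (TMM factors, filterByExpr by group) was run in R 4.3.3. Each fit held all 28 libraries of its assay in 8 groups. Contrasts were 2B minus Control and 2B minus the mean of the 6 other carrier groups, equally weighted. The Benjamini-Hochberg adjustment ran over all features tested, and the threshold was 0.05. CPM refers to the counts of tested features with TMM factors. Relative gene read depth was recovered from the steps of low FPKM values and served for reads per spike-in read and per gene read. The gene reads in these ratios are the FPKM sum times that depth, not a plain read count. Those were compared by two-sided exact permutation over plants. The main fits, and DESeq2 for miRNA loci, were run on data simulated with known changes, which checks the code and not the results.

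Gene identifiers starting with Zm00044a are called B-annotated (686 on the B chromosome, 72 on scaffolds), all others A-chromosome genes, and TEs with zmB in the identifier B-tagged. TE superfamilies were read from the usual 3-letter codes. No gene identifier matched the RefSeq table (0 of 41064), so planned gene lists and leaf markers were not run. The files name no miRNA families; 48 of 98 loci were named by hand from known plant miRNA sequences. The members, lists and names were chosen with earlier results of these data known. Named features are those with the largest changes among called features without overlap between groups and a higher group mean reaching 1 FPKM or CPM: the 2 largest rises and falls for A and B-annotated genes, the largest rise and fall per superfamily with at least 20 tested elements, the 2 largest rises of B-tagged elements, every called miRNA locus and the tested loci of the listed families. Against other carriers the 2 largest rises and falls with a 2B mean outside all other group means are named. Alternatives changed the pseudocount, filter, scaling, tool (DESeq2 1.42.0 for counts), block and plants. Floors of 3 counts cover counting error only.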

Additional observations from a re-analysis of the deposited data

Results flagged for a closer look

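Several named features set the 2B plants apart from the other carriers in a test of that difference. On the log2 scale the 2B plants were higher by 1.76 for the gene Zm00004b024626, 0.42 for Zm00004b023382, 0.87 for the element RLX08791Zm00004b00001 and 0.84 for DHH00002Zm00004b06288. They differed by -2.29 for the gene Zm00004b007283, -1.20 for Zm00004b001721, -1.75 for the element RLX25171Zm00004b00003 and -1.59 for RLG00497zmB00001. Among features named for their change from Control, the differences to other carriers were -0.58 for Zm00044a000145, -0.85 for Zm00044a000177, -1.01 for DTM00851Zm00004b00002, -0.79 for RLX04077Zm00004b00002, -0.75 for RLG00487zmB00001 and -0.62 for DHH00002zmB00367. Of these, the calls of Zm00004b023382, RLX25171Zm00004b00003 and RLG00497zmB00001 were lost in at least 5 alternatives each, and that of DHH00002Zm00004b06288 in 3.

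A single plant stood far from the others of its group in 9 of 152 groups of 4 plants looked at, and chance flags about 1 in 20. In Control these were plant 3 for Zm00044a000177 (0.224 FPKM), plant 4 for miR393-5p at Cluster_20752 (295 CPM) and for miR171-3p at Cluster_64322 (256 CPM), and plant 1 for RLG00497zmB00001 (0.680 CPM). In 2B they were plant 2 for DTA00098Zm00004b00009 (0.990 CPM), plant 3 for RLC01864Zm00004b00003 (0.731 CPM), and plant 1 for 3 miR166-3p loci: Cluster_35706 (360997 CPM), Cluster_7374 (6524 CPM) and Cluster_9786 (19166 CPM). The 3 miR166-3p loci have the same sequence and are not independent.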

How the results depend on the processing

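Of the named features, 1043 of the 1200 alternative values kept their side of the threshold and their direction, 80 lost a call, 31 gained one in the same direction and 46 changed sign. None of the 46 belonged to a feature called in the main setting. Scaled to the whole small RNA library, log2 differences below 0 became 0.46 at Cluster_811 (called), 0.42 at Cluster_32571, 0.37 at Cluster_35706, 0.35 at Cluster_9786, 0.34 at Cluster_38311, 0.27 at Cluster_36501, 0.25 at Cluster_47046, 0.23 at Cluster_32338, 0.19 at Cluster_21063, 0.18 at Cluster_37374, 0.18 at Cluster_64322, 0.12 at Cluster_48379, 0.10 at Cluster_42856, 0.072 at Cluster_42849, 0.050 at Cluster_20752 and 0.030 at Cluster_472. With no filter on low counts they became 0.17 at Cluster_811, 0.16 at Cluster_32571, 0.11 at Cluster_35706, 0.093 at Cluster_9786, 0.055 at Cluster_38311 and 0.0095 at Cluster_36501. With DESeq2 size factors in edgeR, with DESeq2 and with only Control and 2B fitted, Cluster_32571 stood at 0.043, 0.041 and 0.042 and Cluster_811 at 0.057, 0.058 and 0.060. Without a plant the sign was not stable at Cluster_811 (-0.16 to 0.15), Cluster_7374 (-0.042 to 0.24), Cluster_64322 (-0.45 to 0.14), Cluster_32571 (-0.14 to 0.23), Cluster_38311 (-0.24 to 0.047), Cluster_35706 (-0.16 to 0.13), Cluster_36501 (-0.38 to 0.054) and Cluster_9786 (-0.18 to 0.11). Summed reads of superfamilies changed sign per TE read (RLX 0.070, DHH 0.22, RLC 0.23), and those of DHH also without the 10 most counted elements (0.052). The gene calls against Control ranged from 7236 to 7793 when a plant was left out and fell to 3981 with spike-in scaling. The TE calls ranged from 1582 to 1721 without a plant and fell to 1176 with spike-in scaling, where the median of all TEs was 0.22. Without Control replicates 2 and 4 there were 1366, of which 1316 were among the 1803. The 12 miRNA calls became 23 when scaled to the whole small RNA library and ranged from 4 to 15 without a plant, with 7 without Control replicate 1 and 4 without 2B replicate 4; miR528-3p, miR171-3p at Cluster_63212 and miR398-3p at Cluster_49465 were called in all 14 settings.

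Against other carriers the 87 gene calls became 57 with a pseudocount of 0.1 and 53 with spike-in scaling, and 60 to 87 without a plant. The 76 TE calls became 124 with no filter on low counts and 27 with spike-in scaling, and ranged from 45 to 69 without a plant (45 without 2B replicate 2, 48 without 2B replicate 3). The miRNA count of 0 became 1 with DESeq2 size factors in edgeR, DESeq2, no filter and scaling to the whole small RNA library, and ranged from 0 to 1 without a plant. The summed level of B-specific genes was 514 FPKM over 119 genes with a Control mean under 0.5 FPKM, 342 FPKM over 47 genes with a mean of at least 5 FPKM in other carriers, and 389 to 427 FPKM without a plant. For TE superfamilies, gene reads per spike-in read and TE reads per gene read, no alternative passed the threshold. For superfamilies the adjustment could be passed only if most of them reached the smallest possible p, so this says little about any single one.

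Same-numbered Control and 2B plants share only a number. Correlations of their deviations from the group means lay between -0.02 and 0.03 for genes, -0.16 and 0.02 for TEs and -0.33 and 0.30 for miRNA loci. Only plant number 1 correlated best with its own number, for genes and for miRNA loci but not for TEs. With the replicate block there were 8139 gene, 1724 TE and 13 miRNA calls against Control. Of 60247 elements, 5359 passed the filter on low counts.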

Other observations

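Genes that overlap a small RNA locus in the authors' annotation were not described above, apart from the miR156 locus. Of the 7 such genes that were tested, 3 were called, beside 33.7% of all genes tested. The gene at the unnamed Cluster_21144 rose from 3.18 ± 0.820 to 11.4 ± 3.42 FPKM (SD, n = 4 each, log2 difference 1.67, limma adjusted p = 7.55e-08). The small RNA locus itself did not pass its own test (log2 difference -0.35). The gene at the unnamed Cluster_43245 fell from 6.97 ± 3.96 to 2.31 ± 1.04 FPKM (log2 difference -1.34, limma adjusted p = 0.0015).

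The element RLX08791Zm00004b00001 had 27.9, 28.4, 41.2 and 42.3 CPM in Control plants and 82.4, 95.0, 62.8 and 85.0 CPM in 2B plants, without overlap. The 20 other carriers ranged from 21.2 to 99.3 CPM. The Helitron DHH00002Zm00004b06288 did not differ from Control beyond the spread (edgeR adjusted p = 0.636), with 208, 113, 177 and 304 CPM in Control plants and 141, 343, 244 and 179 CPM in 2B plants.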
